A study of Sus scrofa with 15 samples.

Results

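The mitochondrial genome encodes a small set of subunits of the respiratory chain and of ATP synthase, and the messages of 10 of them were followed here in the Longissimus muscle of pigs: ND1, ND2, ND4, ND5 and ND6 of complex I, CYTB of complex III, COX1, COX2 and COX3 of complex IV, and ATP6 of ATP synthase. Members were the non-control array probes whose gene name or description names one of these 10 genes, leaving out the prostaglandin synthases that are also called COX1 and COX2. The 10 genes are among 4754 gene symbols on the array, and the search found 272 of 43603 probes. The gene symbol named 116 of them, the description of a pig protein named 3, and the description of another organism's protein named 153.

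The study compared pigs of divergent lines for residual feed intake (RFI), which is feed intake above that predicted from an animal's growth and upkeep. The low_RFI line (RFIneg in the labels, the more feed-efficient one) had 7 pigs and the high_RFI line (RFIpl) 8. All weighed 20 kg and ate ad libitum, and each pig had its own 1-colour Agilent array, for which 150 ng of total RNA from frozen muscle was amplified with T7 RNA polymerase and labelled with Cy3. Every group is thus a selected population under 1 feeding condition, and the sex, age and litter of the pigs are not given in the sources used here.

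In mammals both strands of the mitochondrial genome are copied as long RNAs that are cut at the tRNAs into single messages. In the RefSeq table of the pig assembly Sscrofa11.1 the coding genes follow each other as ND1, ND2, COX1, COX2, ATP8, ATP6, COX3, ND3, ND4L, ND4, ND5, ND6 and CYTB. Of these, ND6 alone is coded in the other direction. It comes from the light-strand promoter, while the rest share the heavy-strand promoter. In muscle these messages are among the most abundant RNAs of the cell, and their level goes with mitochondrial content and transcription. The array files name no genome build, so positions are given only as the base at which a probe starts in its target sequence.

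The probes themselves show which strand was read. The labelled RNA is complementary to the message, so a probe written in the sense of a message binds it. The first line below is the sole ND6 probe, starting at base 417, and the second is a probe with no gene name whose 24 capitals are the reverse complement of the 24 capitals in the ND4 probe on the third line, which starts at base 312. They are shown because the first 2 read RNA copied from the same strand and the third reads the RNA of the other.
ND6 probe: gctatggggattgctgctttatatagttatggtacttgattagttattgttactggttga
Unnamed probe against ND4: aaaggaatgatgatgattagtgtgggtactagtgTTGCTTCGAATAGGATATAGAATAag
ND4 probe: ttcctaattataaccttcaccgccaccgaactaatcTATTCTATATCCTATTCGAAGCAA
The ND6 probe holds 16 G and 5 C, and the unnamed probe 18 G and 3 C. Of the 115 probes of the other 9 genes, 93.0% hold more C than G, against 47.8% of the 43487 other probes on the array.

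Across the whole array, both strands searched, only 3 probes outside the 116 shared a run of at least 20 bases with them. The first was the unnamed probe above. The second had no gene name either and matched the reverse complement of an ND2 probe over 25 bases, and it was well above background on 2 of 15 arrays. The last was one of the 3 probes named by a pig protein, ND2. It is shown because it holds pieces of both strands: its capitals are 32 bases of the ND2 message, and a run of 20 bases, from its base 11 into the first of those capitals, is the reverse complement of the stretch in capitals on the second line.
ND2 probe named by its description: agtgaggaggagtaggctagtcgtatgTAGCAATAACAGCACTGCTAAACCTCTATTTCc
ND2 probe named by its symbol: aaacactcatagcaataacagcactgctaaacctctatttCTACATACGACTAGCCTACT
The other 2 probes named by a pig protein, 1 for COX2 and 1 for CYTB, were well above background on 0 of 15 arrays. Their processed signals reached 6.15 and 5.91. None of the 153 probes named by another organism's protein shared 20 bases with a probe of these genes. The files list their targets as matching from 3% to 47% of the named protein, with a median of 6%. Of the probes named by a description, 8 lie on targets that the accessions in the files tie to nuclear genes, such as FXR1 and YWHAZ. The 153 are counted as members by the rule, but their values are kept apart from the 116 below.

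Many of the 116 probes were designed on expressed sequences that differ by a few bases, so they are not independent readings. In 9 pairs the probes of a gene start within 2 bases of each other and keep 56 to 59 identical bases when aligned. One such pair is shown for CYTB at base 1056 and another for ND4 at base 1107, with the longest shared run in capitals.
CYTB, first of the pair: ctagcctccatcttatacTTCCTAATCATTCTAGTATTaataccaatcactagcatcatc
CYTB, second of the pair: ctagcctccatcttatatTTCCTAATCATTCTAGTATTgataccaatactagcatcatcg
ND4, first of the pair: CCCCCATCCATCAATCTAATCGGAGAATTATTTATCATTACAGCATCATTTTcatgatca
ND4, second of the pair: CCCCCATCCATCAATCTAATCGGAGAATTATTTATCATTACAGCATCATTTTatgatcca
Over the 9 pairs, the line difference of one probe was within 0.0082 to 0.090 (log2) of that of its partner, with a median gap of 0.034. That median gap is under the median standard error of 0.082 of such a difference, and the widest gap is above it. The standard error measures spread between pigs, not between 2 probes on the same arrays. Partners differed in sign in the ATP6 pair, both COX1 pairs and the CYTB pair shown. The levels of the paired probes correlated over the 15 pigs at 0.61 to 0.96, given as a description, since both probes share each array.

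All 116 symbol probes were well above background on all 15 arrays, and all passed the filter (well above background on at least 7 arrays). Processed signals, in scanner units, had medians from 255 for ND6 to 372715 for a COX3 probe, and no spot was saturated: the highest raw mean signal of a member was 421431, and the files give saturation at 779368 or more. The brightness of a probe depends on its own sequence, so no gene's level is set against another's. In each pig the 116 probes together made up 10.5% to 13.2% of the summed signal of all probes. In low_RFI that share averaged 11.5% ± 0.62 (SD, n = 7), in high_RFI it averaged 11.9% ± 0.69 (SD, n = 8), and the lines overlapped.

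The arrays varied in how many probes they detected. Each array detected 61.7% to 79.5% of its non-control probes, and any pair of arrays correlated at 0.974 to 0.991 over the tested probes. The arrays filled 4 slides that all held pigs of both lines, and the array names fall into pigs numbered 1 to 8 (n = 8) and 55 to 62 (n = 7), both also with both lines. What those number runs are is not given in the sources used here. The tissue carried the markers of skeletal muscle: 11 of 12 muscle fibre markers were tested, with a mean level of 8.77 to 9.17 over the pigs, and 0 of them were at an unadjusted p under 0.05 between the lines. Of the adipocyte, endothelial and leukocyte markers tested (5, 5 and 4), 0 were at that p. No erythrocyte marker passed the filter, and the summed level of that list was not measured. In bulk muscle, fewer cells of a type and less RNA per cell cannot be told apart.

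The question was whether the mitochondrial messages differ in muscle between the RFI lines. No such difference was detected for any of the 10 genes. Levels below are log2 processed signals relative to the 75th percentile of the same array, for the brightest probe of each gene, and differences are low_RFI minus high_RFI from limma, adjusted over the 4155 genes tested. At an adjusted p under 0.05, 0 of the 10 members were called, where 0.0241% of all genes were (1 gene). Among probes, 0 of the 116 were called, as for all 31984 probes tested (0%). At an unadjusted p under 0.05 there were also 0 of the 10 genes and 0 of the 116 probes, against 7.00% of all genes and 6.64% of all probes. The smallest unadjusted p of the 116 was 0.0995, for an ND1 probe (limma adjusted p = 0.823).

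Among the complex I messages, ND1 is a membrane subunit next to the quinone site. Its levels ran from 8.93 to 9.25 with a median of 9.06 in low_RFI, and from 8.84 to 9.41 with a median of 9.09 in high_RFI. The highest and the lowest pig were both high_RFI, so the low_RFI values lay inside the high_RFI range. The difference was -0.059 ± 0.085 (SE, limma adjusted p = 0.98), with a 95% interval from -0.24 to 0.12.

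ND2 and ND4 are proton-pumping membrane subunits of the same complex. ND2 spanned 8.09 to 8.50 (median 8.14) in low_RFI and 8.07 to 8.64 (median 8.37) in high_RFI. Of the low_RFI pigs, 4 lay at or below 8.14 and 3 at or above 8.43, with 4 high_RFI pigs between them. The difference was -0.097 ± 0.10 (SE), the most negative of the 10 genes, with an interval from -0.32 to 0.13. For ND4, low_RFI lay at 8.46 to 8.73 (median 8.49) and high_RFI at 8.35 to 8.90 (median 8.64), a difference of -0.056 ± 0.087 (SE). Within each of the 4 slides the differences of ND1, ND2 and ND4 were negative, from -0.26 (ND2 on slide 2) to -0.0063 (ND1 on slide 3 and ND4 on slide 1).

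ND5, a pumping subunit at the far end of the membrane arm, had 2 probes. Its levels were 7.10 to 7.57 (median 7.42) in low_RFI and 6.83 to 7.74 (median 7.44) in high_RFI. The lines overlapped throughout, and the difference was 0.0083 ± 0.12 (SE). ND6, the light-strand message, ran from -1.05 to -0.14 (median -0.54) in low_RFI and from -1.13 to -0.28 (median -0.61) in high_RFI. Its difference of 0.12 ± 0.17 (SE) was the most positive of the 10, and its interval from -0.24 to 0.48 the widest. By slide it was 0.10, -0.30, -0.14 and 0.55, so its sign was not shared by the slides.

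CYTB, the catalytic cytochrome of complex III, spanned 9.54 to 9.73 (median 9.67) in low_RFI and 9.49 to 9.91 (median 9.59) in high_RFI, and differed by 0.013 ± 0.074 (SE). COX1, the subunit that holds the oxygen-reducing centre of complex IV, kept to 9.63 to 9.76 (median 9.68) in low_RFI while high_RFI spread from 9.41 to 9.91 (median 9.69). Its mean difference was 0.0051 ± 0.079 (SE). COX2, which takes electrons from cytochrome c, lay at 9.29 to 9.54 (median 9.47) in low_RFI and 9.24 to 9.58 (median 9.44) in high_RFI, a difference of 0.020 ± 0.071 (SE). COX3, a structural subunit, lay at 9.87 to 10.10 (median 9.98) in low_RFI and 9.81 to 10.34 (median 9.97) in high_RFI, a difference of -0.030 ± 0.078 (SE). ATP6, part of the proton channel of ATP synthase, lay at 9.36 to 9.65 (median 9.54) in low_RFI and 9.39 to 9.87 (median 9.50) in high_RFI, a difference of 0.0076 ± 0.080 (SE). In none of these 5 genes were the lines apart. In fold terms, the 95% intervals of the 10 genes reached from 0.802 (ND2) to 1.39 (ND6).

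**Figure D1:**
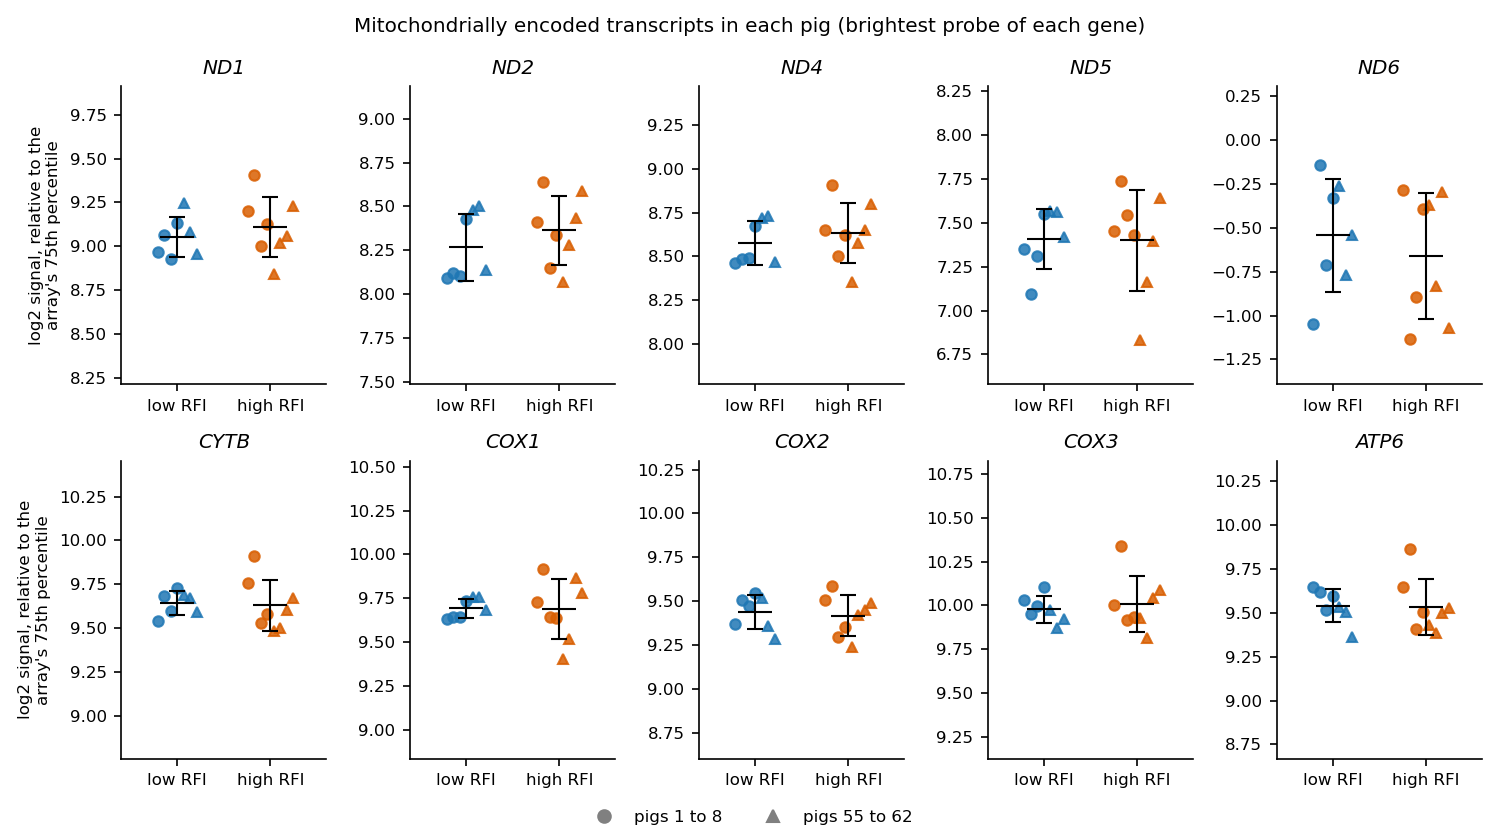
Level of each of the 10 messages in each pig (log2 signal relative to the array's 75th percentile, brightest probe), with low_RFI (n = 7) and high_RFI (n = 8) side by side; circles are pigs 1 to 8, triangles pigs 55 to 62, and the bar with whiskers is the mean ± SD. Each panel spans 1.70 log2 units. The lines overlap in every panel, and the pig at the top of every panel but that of ND6 is high_RFI replicate 2.

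Averaged over the 10 genes, low_RFI pigs had a level of 8.11 ± 0.089 (SD, n = 7), and high_RFI pigs one of 8.11 ± 0.13 (SD, n = 8). The mean difference was -0.0073, where the median over all genes tested was 0.014. In 29 of the 56 pairs of a low_RFI and a high_RFI pig the low_RFI pig had the higher mean. The SD of a probe's level over the 15 pigs had a median of 0.17 among the 116 probes and 0.28 among all tested probes, and 109 of the 116 were below the latter. Most of the 116 were bright, however, with a median signal of 149276, and the dim ND6 probe had the widest SD (0.34). Bright muscle fibre genes lay on both sides, such as CKM (0.10) and ACTA1 (0.12) against TNNT3 (0.23) and MYH7 (0.35). The part of brightness in these SDs was not tested.

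The probes of a gene tended to fall on the same side, and the sides differed between genes. All 20 ND1 probes, all 12 ND2 probes and all 10 ND4 probes were lower in low_RFI, with median differences of -0.094, -0.081 and -0.078. So were 19 of 21 CYTB probes (median -0.052) and 10 of 13 COX3 probes (median -0.040). In contrast, 18 of 24 COX1 probes (median 0.026), 7 of 9 ATP6 probes (median 0.010), 3 of 4 COX2 probes (median 0.019) and both ND5 probes were higher in low_RFI. Across all tested probes 46.6% were lower in low_RFI, and across the 116 it was 80. Probes of a gene share each pig's RNA and often their bases, so these counts say no more than the gene differences above. They also moved with the scaling of the arrays: 43 of the 116 were lower in low_RFI after normexp background correction and 93 after quantile normalization.

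Line differences and spread varied with probe position within most messages. In CYTB the line difference was -0.14 for the first probe, at base 240, and between -0.040 and 0.069 for the probes from base 1041 on. Spearman's rho between start and line difference was 0.83 over its 21 probes, 0.74 over the 20 of ND1 and 0.54 over the 24 of COX1, but -0.21 over the 12 of ND2 and 0.18 over the 10 of ND4. The spread between pigs moved with position too: rho between start and SD was -0.81 in CYTB, -0.80 in ND1, -0.88 in ND4, -0.81 in COX3, -0.67 in COX1 and -0.39 in ND2, but 0.28 over the 9 probes of ATP6. In all of these but ATP6, levels near the start of a target tended to vary more between pigs. Brightness moved with position as well, at rho 0.86 in ND1, 0.81 in CYTB, 0.77 in ND4, 0.73 in COX3, 0.58 in ND2, 0.57 in COX1 and 0.25 in ATP6, and the parts of position and brightness were not told apart. These are descriptions over probes that share arrays and overlap in sequence.

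**Figure D2:**
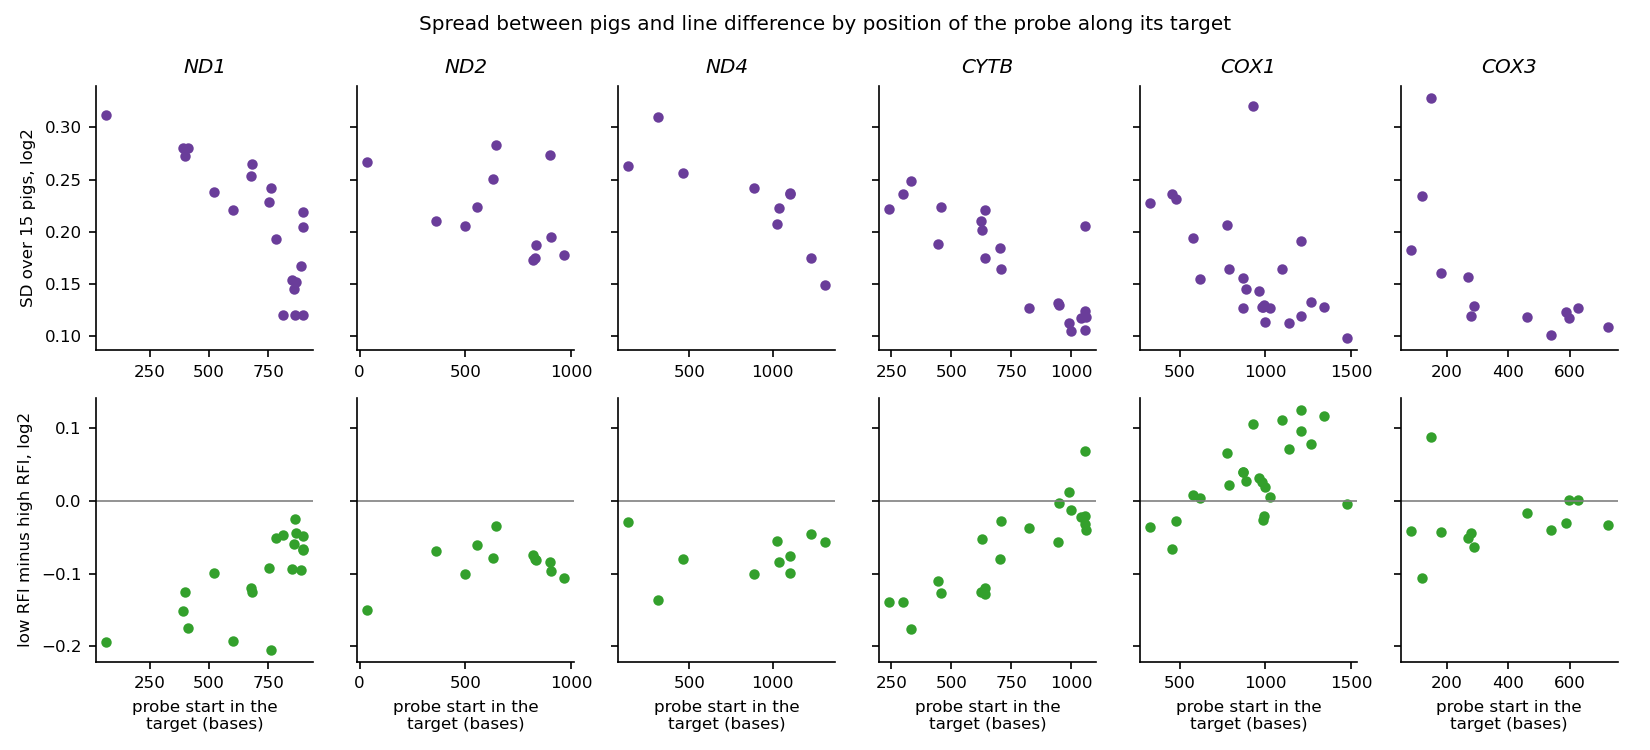
SD of the level over the 15 pigs (upper row, log2) and difference between the lines (lower row, low_RFI minus high_RFI, log2) for each symbol probe of 6 genes, against the base at which the probe starts in its target. Each point is 1 probe. SDs tend to be lower toward the end of the target, least clearly in ND2 (rho = -0.39), and in ND1 and CYTB the line differences tend to lie closer to 0 there.

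To compare pigs on this, the mean level of a gene's probes in the latter part of the target minus that in the former part was taken in each pig. Its absolute size depends on the probes, but it can be compared between pigs. In CYTB low_RFI had 1.19 ± 0.12 (SD, n = 7), high_RFI had 1.10 ± 0.11 (SD, n = 8), and 39 of 56 pairs had the low_RFI pig higher. In ND1 it was 1.52 ± 0.17 in low_RFI and 1.43 ± 0.096 in high_RFI (35 of 56 pairs). These were the genes with the widest gaps between line means; the other 5 lay between -0.0045 (ND2) and 0.032 (COX1), and the lines overlapped in all 7. By run, ND1 had 1.54 ± 0.13 (n = 8) in pigs 1 to 8 and 1.39 ± 0.11 (n = 7) in pigs 55 to 62, while ND2 went the other way (1.02 ± 0.085 and 1.12 ± 0.071), as did ATP6 (0.096 ± 0.060 and 0.13 ± 0.064). Whether the integrity or labelling of the RNA had a part in this was not tested.

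The line differences of most probes had opposite signs in the runs of pig numbers. Among pigs 1 to 8, 103 of the 116 probes were lower in low_RFI, with a median difference of -0.15, where 47.8% of all tested probes were. Among pigs 55 to 62, 105 of the 116 were higher in low_RFI, with a median of 0.090, and 47.9% of all probes were lower there. In 95 probes (81.9%) the difference was negative in the first run and positive in the second, as in 24.0% of all tested probes. By the brightest probe of each gene, ND5 moved most, from -0.21 in pigs 1 to 8 to 0.26 in pigs 55 to 62. ND2 went from -0.20 to 0.031, ND1 from -0.16 to 0.056 and COX1 from -0.070 to 0.090. ND6 kept its sign, with 0.12 in both runs, as did COX3 (-0.027 and -0.047), and COX2 turned the other way (0.040 and -0.013).

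The test of this change itself found no call. With line, run and their interaction in limma, 0 of the 116 probes and 0 of the 10 genes passed (0% of all probes and of all genes), with a smallest adjusted p of 0.872 among the probes. At an unadjusted p under 0.05 there were 10 of the 116 (8.62%), against 5.61% of all probes. The counts moved with single pigs. High_RFI replicate 2, of pigs 1 to 8, was the highest of all 15 pigs in 9 of 9 members other than ND6. High_RFI replicate 5, of pigs 55 to 62, was the lowest in 7 of the 9. Without the former, 83 of the 116 probes were lower in low_RFI among pigs 1 to 8 and the median difference was -0.083. Without the latter, 71 were higher among pigs 55 to 62 and the median was 0.018. Replicate 5 also had the highest 75th percentile of signal (441, where the others ran from 320 to 435), and among pigs 55 to 62 it had the largest latter-minus-former contrast in 6 of 7 genes, such as 1.59 in ND1 and 0.97 in COX3. On average, the contrast followed the line and run like the levels, in the opposite direction. In pigs 1 to 8 its mean was larger in low_RFI in all 7 genes, as in ND1 (1.64 ± 0.10 and 1.45 ± 0.045, n = 4 each) and COX3 (0.92 ± 0.061 and 0.79 ± 0.023). In pigs 55 to 62 it was smaller in low_RFI in all 7, as in ND1 (1.36 ± 0.065, n = 3, and 1.41 ± 0.14, n = 4) and COX3 (0.70 ± 0.057 and 0.83 ± 0.16). In ATP6 that gap was slight (0.1247 and 0.1255). These high_RFI means include replicate 5. The other high_RFI pigs of that run had 1.44, 1.34 and 1.28 in ND1, where the low_RFI pigs had 1.31, 1.34 and 1.43. Without replicate 5, the high_RFI mean of that run fell below the low_RFI mean in ND1, COX1, CYTB and ATP6. It stayed above in ND2, ND4 and COX3. The contrast is taken from the same probes as the levels, and except in ATP6 the former probes tended to vary more between pigs. A course opposite to that of the levels can thus be built in. The part of the 75th percentile or of the contrast in the levels was not tested.

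**Figure D3:**
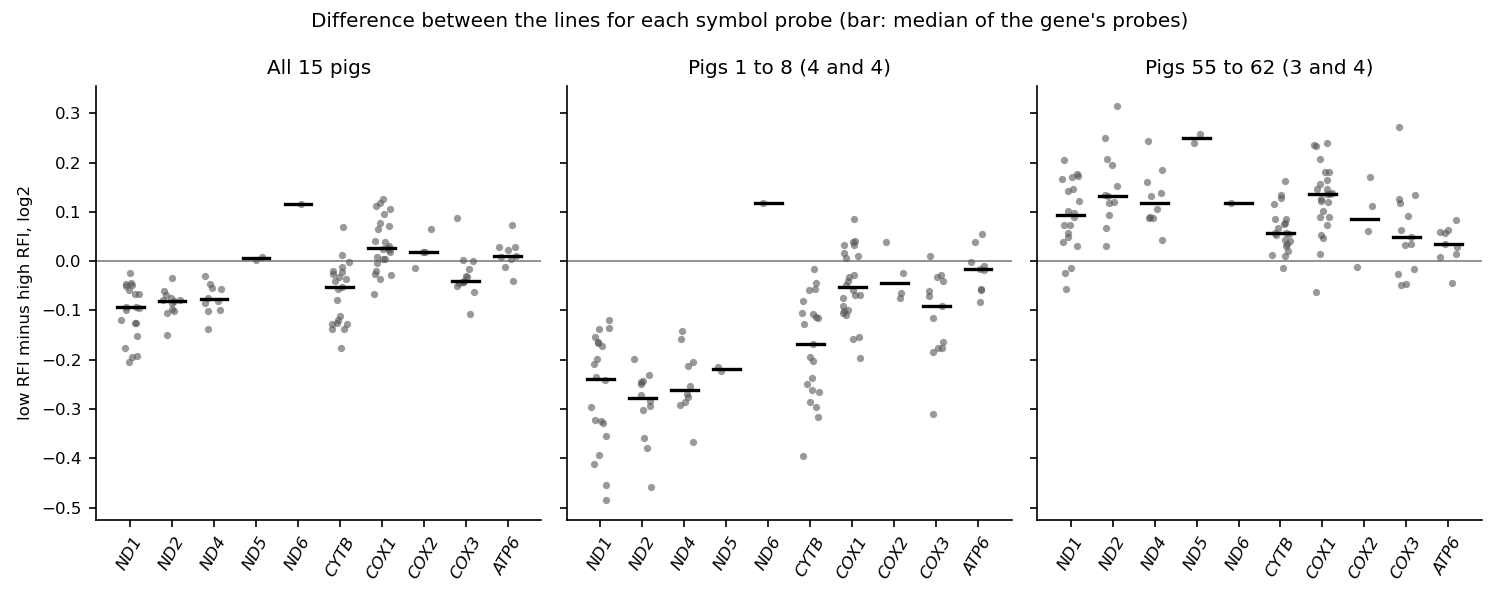
Difference between the lines (low_RFI minus high_RFI, log2) for each of the 116 symbol probes by gene, over all 15 pigs (left), in pigs 1 to 8 with 4 pigs a line (middle) and in pigs 55 to 62 with 3 low_RFI and 4 high_RFI pigs (right); bars are medians of a gene's probes. Of the 116 points, 103 lie below 0 in the middle panel and 105 above 0 in the right one.

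No difference between the runs themselves was detected in these messages. With line as a covariate, 0 of the 10 members were called between pigs 55 to 62 and pigs 1 to 8, where 3.71% of all genes were (154 of 4155). The largest difference was that of ATP6, at -0.14 ± 0.073 (SE, limma adjusted p = 0.28). ATP6 levels ran from 9.41 to 9.87 in pigs 1 to 8 and from 9.36 to 9.54 in pigs 55 to 62. The other 9 genes lay between -0.088 (COX3) and 0.065 (ND2). Among the 116 probes 0 were called and 48 were higher in pigs 55 to 62, against 2.28% of all probes called.

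The 9 heavy-strand messages varied together from pig to pig. Over the 15 pigs the 36 pairs among them correlated at 0.39 to 0.98 (Pearson), with a median of 0.72. ND6 stood apart, at -0.39 to 0.042 with each of the 9. High_RFI replicate 2, highest in the 9 others, was the lowest of all pigs in ND6 (-1.13).

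The ND6 level went with that of the unnamed probe on the opposite strand of ND4. That probe was well above background on all 15 arrays, with processed signals from 152 to 280, a range like the 159 to 356 of the ND6 probe. Pearson's r over the 15 pigs was 0.71 (permutation p = 0.0042, 100000 resamples, two-sided; 0.013 after Benjamini-Hochberg adjustment) and Spearman's rho 0.64 (permutation p = 0.012, adjusted 0.037). It was 1 of 6 relations across pigs that were computed, over which the values are adjusted, and it was picked out with the probes' values known. Leaving out the 2 pigs farthest from the median of the unnamed probe gave r = 0.70. Within low_RFI r was 0.53, within high_RFI 0.84, within pigs 1 to 8 0.90 and within pigs 55 to 62 0.50. Of 31717 tested probes with a value in every pig, 15 correlated with ND6 at least as well (0.0473%). The mean of the 9 other members correlated with ND6 at -0.23 and rho -0.018 (permutation p = 0.42 and 0.95, adjusted 0.50 and 0.95), and with the unnamed probe at -0.29 and rho -0.24 (permutation p = 0.29 and 0.39, adjusted 0.44 and 0.58). Without the 2 pigs farthest from the median of that mean, these were 0.23 and -0.097. Within low_RFI, high_RFI, pigs 1 to 8 and pigs 55 to 62, ND6 gave r of 0.37, -0.46, -0.22 and -0.24 with that mean. In the same groups the unnamed probe gave 0.0085, -0.44, -0.20 and -0.81 with it. These values within groups were not tested. Between the lines the unnamed probe differed by 0.11 ± 0.14 (SE, limma adjusted p = 0.97), beside 0.12 for ND6.

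**Figure D4:**
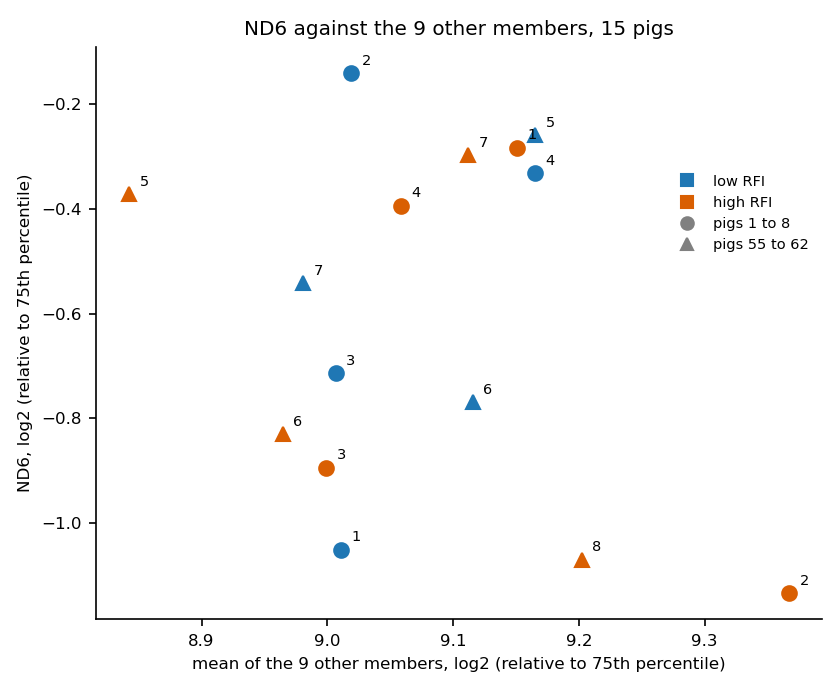
ND6 level of each pig (vertical, log2) against the mean level of the 9 other members (horizontal, log2), both relative to the array's 75th percentile; numbers are replicates, colours the lines and shapes the runs of pig numbers. The 15 points show no common trend (r = -0.23), and high_RFI replicate 2 is at once the highest on the horizontal axis and the lowest on the vertical one.

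No mitochondrial message outside the 10 passed either. ATP8, whose reading frame overlaps that of ATP6, gave 0.0026 ± 0.13 (SE), ND4L -0.027 ± 0.14 and the 2 ND3 probes -0.13 and -0.091. They correlated with the mean of the 9 at 0.81 to 0.87. The other members of the oxidative pathway were few on the array by symbol. Of 10 nuclear complex I genes tested, 0 passed and 10 were lower in low_RFI, with a median of -0.074 beside 0.014 over all genes. NDUFAB1, the mitochondrial acyl carrier protein, gave -0.28 ± 0.16 (SE) and NDUFB9, an accessory subunit, -0.25 ± 0.15. They also followed the runs: 10 of 10 were lower in low_RFI among pigs 1 to 8 (median -0.26) and 3 of 10 among pigs 55 to 62 (median 0.076). The mean of these 10 genes correlated with the mean of the 9 mitochondrial messages at 0.74 and rho 0.70 over the 15 pigs (permutation p = 0.0013 and 0.0050, adjusted 0.0077 and 0.030 over the 6 relations). It was 0.67 without the 2 pigs farthest from the median of the nuclear genes, 0.61 and 0.86 within low_RFI and high_RFI, and 0.64 and 0.92 within pigs 1 to 8 and 55 to 62. Both means come from the same arrays and scaling, and the share of all genes that correlate as well was not computed. The transporter SLC22A4 and BAIAP2L2, which are in none of these lists, correlated with the mean of the 9 at 0.79 and 0.74. Both were picked from 4086 genes as among those closest to the mean of the 10 members. Their values are thus high by selection. The array's share of probes well above background and its 75th percentile correlated with the mean of the 9 at -0.026 and -0.50 (rho -0.089 and -0.46; permutation p = 0.93 and 0.060, adjusted 0.93 and 0.12; for rho 0.75 and 0.087, adjusted 0.90 and 0.17), and at -0.061 and -0.28 without 2 pigs. The levels have that same 75th percentile subtracted, so a negative correlation with it can be built in, and its p-values do not allow for this. Of 5 nuclear complex IV genes, 3 were lower in low_RFI (median -0.048), of 10 ATP synthase genes 8 (median -0.064) and of 2 complex III genes 1, with 0 called in each. COX6C, a small subunit of complex IV, had the smallest p of those (-0.15 ± 0.081 SE, limma adjusted p = 0.78).

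Of the genes that make or handle these RNAs, 1 passed. MTERFD1, the array's symbol for MTERF3, which belongs to the mitochondrial terminator-binding protein family, differed by -0.57 ± 0.088 (SE, limma adjusted p = 0.032). It was the single gene called among 4155, and no gene was called without low_RFI replicate 1, 3, 4 or 7 or without high_RFI replicate 1, 2, 3, 4, 7 or 8 (each left out alone). Nor was a gene called with the slide as a block (smallest limma adjusted p = 0.066), with the replicate block (0.12), after normexp (0.17), with array medians (0.20) or on the deposited values (0.056). Its levels ran from 1.53 to 1.95 in low_RFI and from 2.16 to 2.55 in high_RFI without overlap, where 6 of the 4155 genes tested had no overlap. These values are for the brightest of its 3 tested probes. TFAM, which packages mitochondrial DNA and starts its transcription, gave -0.029 ± 0.10 (SE), the methyltransferase TFB1M 0.12 ± 0.088 and MTERFD3 (MTERF2) -0.061 ± 0.13. Of 4 genes of RNA processing and stability 0 were called, with FASTK at -0.17 ± 0.14 and the RNA-binding SLIRP at 0.10 ± 0.12. POLG, the polymerase of mitochondrial DNA, gave 0.012 ± 0.095, and RRM2B, a subunit of ribonucleotide reductase, -0.077 ± 0.12. PPARGC1A, a coactivator of mitochondrial biogenesis, gave -0.40 ± 0.18 and did not pass (adjusted p = 0.70). Of the assembly factors, NDUFAF4 gave -0.058 ± 0.13 and COX17 0.0097 ± 0.088.

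Of 4086 other genes with a value in every pig, the 5 whose level followed the mean of the 10 members most closely were CHCHD10 (r = 0.86), a protein of the mitochondrial intermembrane space, NDUFA9 (0.86), a nuclear subunit of complex I, the organic cation transporter SLC22A4 (0.84), BAIAP2L2 (0.84) and ND4L (0.83). Their line differences lay between -0.096 and 0.015, and 0 passed. These were the best of many and are given as a description.

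Of the 153 probes named by other organisms' proteins, 117 passed the filter, 90 were well above background on all arrays and 14 on none. Their line differences ran from -0.70 to 1.16 with a median of 0.017, 0 were called, and 6 of the 117 were at an unadjusted p under 0.05, where 6.64% of all probes were. Between the runs of pig numbers 2 were called, where 2.28% of all probes were: a probe listed for ND5 on a target tied to FXR1 (-0.36, limma adjusted p = 0.023) and one listed for CYTB on a target tied to MXI1 (-0.42, limma adjusted p = 0.029). The probe of smallest p, listed for CYTB, lies on a target tied to YWHAZ and gave 0.38 ± 0.10 (SE, limma adjusted p = 0.47). The SD over pigs of these 153 probes had a median of 0.35. They thus scattered more widely than the 116 probes that carry the genes' own sequence, but they were also far dimmer. Their median signal was 44.7, against 149276 for the 116, and that SD includes probes that failed the filter. The part of brightness was not tested.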

How the data were processed

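Each pig's array file holds 1-colour scanner output. Per the file headers, spot intensity was extracted with Feature Extraction 10.7.3.1, which made the background-subtracted processed signal and the other flags and scores of each spot. The deposited values are log2 processed signals from which the median of the 29364 spots listed was subtracted, array by array (largest difference from the scanner files 4.93e-08); it was an alternative. R 2.10.0 is named in the submitters' processing notes. The array intensities limit precision by the number of arrays, 15.

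Control spots and non-uniform spots were left out, spots of a probe averaged, and log2 processed signal was centred on the array's 75th percentile. Probes well above background on at least 7 arrays, with 4 values in each line, were tested with limma 3.58.1 (R 4.3.3, the data.table package, version 1.17.8, statmod 1.5.0), two-sided, Benjamini-Hochberg over all probes or genes, threshold 0.05. A gene was its brightest tested probe. The labels do not say whether pigs shared a litter, so p-values measure the spread between these pigs. Array symbols can be old: MTERF3, MTERF2 and MTERF4 were sought as MTERFD1, MTERFD3 and MTERFD2. The fits were tested on simulated data.

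The members and lists were chosen with earlier results of these data known. Named were the 10 members, the 5 genes most correlated with their mean, at most 4 genes of smallest p in each list (other mitochondrial RNAs, mitochondrial transcription, RNA processing, DNA replication, nuclear complexes I, III, IV and ATP synthase, biogenesis regulators, assembly, and markers of muscle, adipocytes, erythrocytes, endothelium and leukocytes), and any gene past the threshold. Alternatives changed the background correction (normexp, offset 50), centring, quantile normalization, filter, spot flags, blocks, weights, threshold and pigs.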

Additional observations from a re-analysis of the deposited data

How the results depend on the processing

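None of the 10 genes was called in the alternative fits, for the line (310 values, of which 35 changed sign) or for the run of pig numbers (300 values, 30). Within single slides or runs, which have no test, 19 of 60 line differences changed sign. The cause of the changes was not tested. Under normexp, line differences turned to 0.050 for ND1, 0.010 for ND4 and 0.052 for COX3, and the run difference to 0.024 for COX1. Quantile normalization gave line differences of -0.045 for ND5, -0.0064 for COX2 and -0.0078 for ATP6, and run differences of 0.024 for ND1, 0.083 for COX1, 0.017 for COX2, 0.0016 for COX3 and 0.017 for CYTB. A slide block gave -0.0046 for ND5 and -0.00013 for COX1, and a run block -0.0022 for ATP6. Array weights gave line differences of -0.0085 for ND5 and -0.0015 for COX1, and run differences of 0.0056 for ND1, 0.0062 for ND5, -0.074 for ND6 and 0.031 for COX1. The mean of a gene's probes gave a line difference of -0.065 for CYTB and run differences of 0.042 for ND1 and -0.042 for ND2.

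Leaving out 1 pig at a time, line differences ranged from -0.073 to 0.060 for ND5, -0.035 to 0.038 for COX1, -0.0059 to 0.045 for COX2, -0.058 to 0.017 for COX3, -0.0081 to 0.053 for CYTB and -0.013 to 0.14 for ATP6. Without a change of sign they ranged from -0.097 to -0.016 for ND1, -0.14 to -0.058 for ND2, -0.096 to -0.017 for ND4 and 0.048 to 0.20 for ND6. In each of these fits the brightest probe of a gene was picked anew. The 0.14 for ATP6, without low_RFI replicate 1, came with a change of probe and is not that pig's effect on the probe reported above. Run differences ranged from -0.090 to 0.00023 for ND1, -0.019 to 0.058 for ND4, -0.11 to 0.024 for ND5, -0.042 to 0.11 for ND6 and -0.047 to 0.030 for COX1. Symbol probes lower in low_RFI numbered 60 to 99. Genes called numbered 0 to 2 and probes called 0 to 2. The 1 gene call became 0 under normexp, the array median, the deposited values and the slide block, and 1 probe was called with no filter. Under quantile normalization 2 symbol probes were at an unadjusted p under 0.05.

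With the replicate block, 0 genes were called (smallest limma adjusted p = 0.12). Same-numbered pigs' deviations correlated at -0.038 to 0.32 over 7 pairs, and the labels do not pair them. The run difference could not be fitted under that block, since runs are nested in replicate numbers. The counts without high_RFI replicate 2 or 5 within a run (83 and 71) were chosen after seeing the data.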
